A study of Homo sapiens with 8 samples.

Results

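The 44 genes described here code for machines of mitosis: motor kinesins, condensin, the anaphase-promoting complex (APC/C), proteins of the spindle and of cytokinesis, their mitotic cyclins, and transcription factors that drive such genes. Members were listed by symbol, without a cut on measured values but with earlier results of these data known. The brightest transcript cluster (a group of probes that reports 1 gene) was taken for each. Of the 44, 42 were measured among 17709 named clusters. CIT and CKAP5 are not analysed here. RNA came from 8 tumours that SK-OV-3, an established line of human ovarian cancer, formed in nude mice, hosts that lack T cells but keep other leukocytes. In 4 tumours the cells carried the vector pIND_BORA, which overexpresses BORA, and in 4 the empty vector pIND_EV (EV). All 8 share the line and the host. The labels name neither the promoter nor an inducer of the vector, do not say whether a line was 1 clone, and give no age of host. Nor do they tie tumours to animals, so p-values cover only how far these samples scatter, part of which may be technical.

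Mitotic kinesins slide, cross-link or shorten spindle microtubules. Condensin compacts chromosomes, and the APC/C, a ubiquitin ligase, marks cyclins and securin for destruction so that sister chromatids separate. Most of these genes are transcribed late in the cell cycle under FOXM1, MYBL2 and the MuvB complex, so their RNA is widely read as a measure of proliferation. BORA acts just upstream, helping Aurora A to switch on the kinase PLK1 before mitosis.

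BORA itself was at 12.57, 12.55, 12.91 and 13.001 on the log2 scale in BORA replicates 1 to 4 and at 6.16, 6.15, 6.89 and 7.32 in EV replicates 1 to 4. The groups lay far apart (log2 difference 6.13, SE 0.27, limma adjusted p = 2.38e-05; two-sided exact permutation p = 0.0286 over 70 splits, the smallest it allows). Array medians lay between 6.96 and 7.07. EV replicate 1 stood apart: it correlated with the other arrays at 0.943 to 0.954, and they with each other at 0.981 to 0.992. In that array 10 of 11 squamous epithelial markers exceeded all other arrays, and their summed signal was 18.53 on the log2 scale against 13.14 to 14.02 in EV replicates 2 to 4 and 12.88 to 15.03 in BORA tumours. Of 8 ovarian carcinoma markers 5 lay below every other array there, with a summed signal of 15.88 against 16.33 to 17.67 in EV replicates 2 to 4 and 16.60 to 16.88 in BORA tumours. PAX8 and EPCAM were bright in all 8 arrays, while MUC16, WT1 and SOX17 were dim in every array, below the level under which 95% of negative control probes fell. Differences between BORA and EV tumours are therefore given over 8 tumours and over the 7 left without EV replicate 1.

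No member passed the test between BORA and EV tumours, over 8 tumours (0 of 42) or over 7 (0 of 42). By that test, limma at an adjusted p under 0.05, 0.102% of all clusters passed over 8 tumours, all of them higher, and 0.514% over 7, with 0.435% higher and 0.0791% lower. What set the tumours apart was EV replicate 1, in which most members were low. The mean log2 signal over the 42 members was 10.24, 9.88, 9.73 and 9.58 in BORA replicates 1 to 4. It was 8.37, 9.66, 9.97 and 9.84 in EV replicates 1 to 4. The EV range without replicate 1 thus lay inside the BORA range, and replicate 1 lay below both. The mean was 9.86 ± 0.28 (SD, n = 4) in BORA tumours and 9.46 ± 0.74 (SD, n = 4) in EV tumours, a log2 difference of 0.40 (SE 0.39). Over EV replicates 2 to 4 the EV mean was 9.82 ± 0.16 (SD, n = 3) and the difference 0.038 (SE 0.17). This small value changed sign with the scaling (-0.061 after quantile normalization, -0.012 after centring each array on its median).

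**Figure D1:**
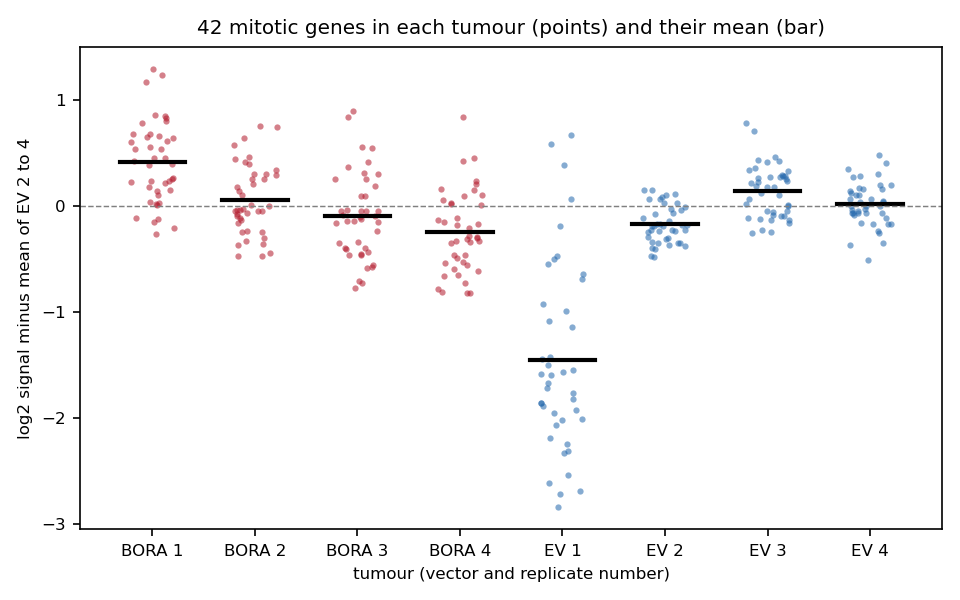
Each point (red for BORA, blue for EV) is 1 of the 42 measured genes in 1 tumour, as log2 signal minus that gene's mean in EV replicates 2 to 4. Each black bar is the mean over the 42 genes. The bar of EV replicate 1 sits at -1.45, those of the other 7 tumours between -0.24 and 0.42.

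EV replicate 1 was the lowest of the 8 tumours for 36 of the 42 members, 85.7%, where this held for 22.2% of all clusters. Of clusters whose group means both exceeded the negative control level, it held for 33.9%. EV replicate 1 lay more than 1 log2 unit below the mean of EV replicates 2 to 4 for 30 members, against 6.53% of all clusters. It lay more than 1 unit above that mean for 0, against 6.11%. In bulk tissue, fewer dividing tumour cells and less RNA per cell cannot be told apart. The squamous and carcinoma markers moved in the same array, and their part in the low mitotic signal was not tested. This negative control level was also highest there, at 8.24 against 7.62 to 8.13 elsewhere, and 19 members exceeded it, against 33 to 39 in the other tumours.

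All 11 kinesins had their lowest value in EV replicate 1, as did all 5 measured cytokinesis genes, all 7 condensin and chromosome genes and both transcription factors. So did 4 of 5 spindle genes, 5 of 8 APC/C genes and 2 of 4 cyclin, securin and separase genes. Role medians of the difference from EV replicates 2 to 4 were -1.56 for kinesins, -1.71 for cytokinesis genes, -2.00 for spindle proteins, -1.82 for condensin and chromosome genes and -2.51 for the transcription factors. The median was -0.52 for the APC/C list and -0.88 for cyclins, securin and separase, lists that ranged widely: UBE2S, CDC20, CCNB2 and CCNA2 were at -2.72, -2.18, -1.89 and -1.58. NCAPG, a condensin subunit, had the lowest value of all members at -2.84, followed by UBE2S and then MYBL2 at -2.68. In EV replicate 1 every kinesin but KIF23 (8.98) lay below the negative control level of 8.24. FOXM1 (6.999), MYBL2 (7.93) and UBE2S (6.15) did too, and among others CCNB2 (7.31), TACC3 (7.71), DLGAP5 (7.10) and ASPM (7.78). Only 19 of the 42 members exceeded that level there, so the sizes of these differences are uncertain.

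4 members lay above the EV 2 to 4 mean in that tumour. They were CDC16 (0.68), a core APC/C subunit, FZR1 (0.59), the activator that holds the APC/C active after mitosis, CKAP2 (0.39), a spindle protein, and PTTG1 (0.068), which codes for securin. Separase (ESPL1) was at -0.18, and the core subunits CDC23, ANAPC1 and CDC27 were at -0.47, -0.49 and -0.54. The median of all clusters was -0.044, and of those with both group means above the negative control level -0.089. These differences set 1 tumour against 3 and have no test.

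**Figure D2:**
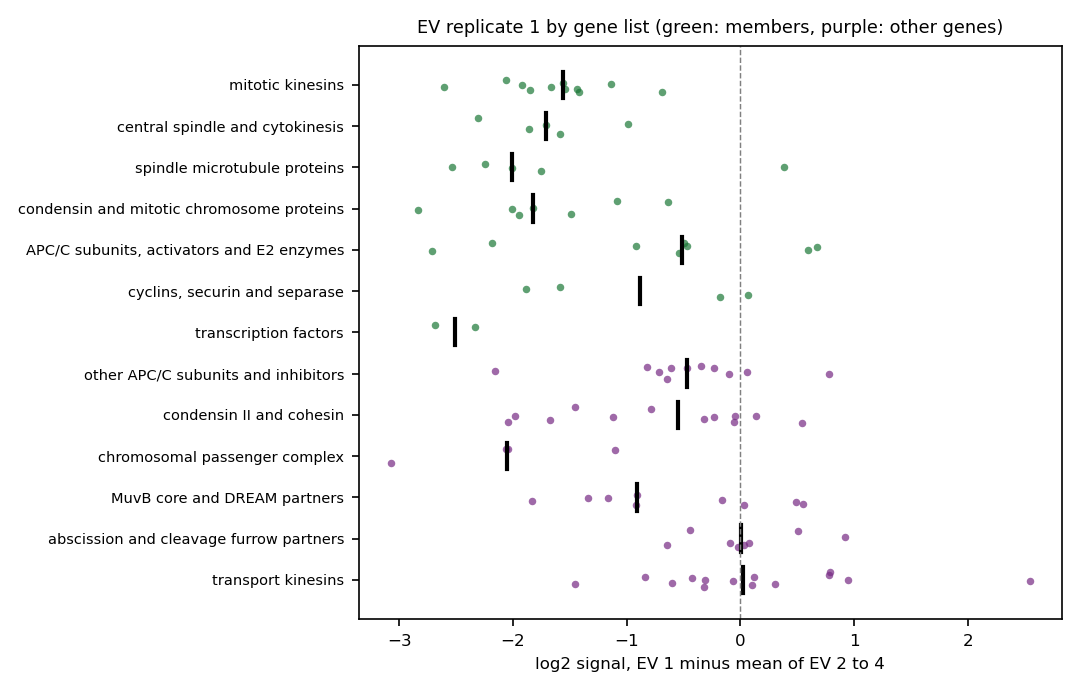
Each point is a gene, placed by its log2 signal in EV replicate 1 minus its mean in EV replicates 2 to 4, and the black bars are list medians (green for the members by role, purple for related genes outside the list). Medians run from -2.51 for the transcription factors to 0.019 for transport kinesins.

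Lists of related genes also had different medians in EV replicate 1. The chromosomal passenger genes, partners of Aurora B, had a median of -2.05, with INCENP at -3.07. Of these only INCENP exceeded the negative control level in that array. FBXO5, an APC/C inhibitor made in late G1, was at -2.15, with a signal of 6.14 that also lay below that level. The 11 other APC/C genes, FBXO5 included, had a median of -0.47. Condensin II and cohesin genes had a median of -0.55, with 8 of 12 lowest there, and MuvB and DREAM genes of -0.91, with 5 of 9 lowest. Transport kinesins, motors of interphase cargo from the same superfamily as the mitotic kinesins, had a median of 0.019 over 14 genes, and abscission and furrow genes with wider duties, such as RHOA, 0.0075 over 8.

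Many promoters of the members hold motifs of late cell cycle genes. Members were chosen by symbol and not by promoter sequence. Most are genes described above as under MuvB, so motif counts are not independent of that choice. The cell cycle genes homology region (CHR, letters TTTGAA) is the element through which MuvB acts, and the CCAAT box is bound by NF-Y. RefSeq promoter windows of the GRCh38.p14 build, from 250 bases before to 50 after a start, were found for 41 of the 44 members, 47 windows in all. The entries for FOXM1, RACGAP1 and UBE2C are missing. TTTGAA, on either strand, stood in 29 of the 47 windows, 61.7%, against 15.2% of 35116 windows of all genes. CCAAT, on either strand, stood in 31, 66.0%, against 34.6%. Both stood in 21, 44.7%, against 5.90%. Neighbouring matches of the 2 motifs can share at most 1 base, and a match is not a shown binding site. Lists of related genes varied. TTTGAA stood in 1 of 17 windows of transport kinesins, 0 of 22 of abscission and furrow genes and 3 of 23 of the other APC/C genes. It stood in 4 of 15 windows of condensin II and cohesin genes, 5 of 14 of MuvB and DREAM genes and 2 of 4 of passenger genes. The roles of the members varied too, with 6 of 6 windows for cytokinesis genes, 3 of 8 for the APC/C list and 2 of 5 for cyclins, securin and separase.

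The promoters below are of members described by tumour in the text: 4 that hold both motifs with the most matches (MKI67 ties with CDC20 for the last place and is not shown), and MYBL2, which holds neither. Each is the 250 bases before the start, 5′ to 3′ on the strand of the gene, with TTTGAA or TTCAAA and CCAAT or ATTGG in capitals.
TOP2A, chr17:40417897-40418146, minus strand: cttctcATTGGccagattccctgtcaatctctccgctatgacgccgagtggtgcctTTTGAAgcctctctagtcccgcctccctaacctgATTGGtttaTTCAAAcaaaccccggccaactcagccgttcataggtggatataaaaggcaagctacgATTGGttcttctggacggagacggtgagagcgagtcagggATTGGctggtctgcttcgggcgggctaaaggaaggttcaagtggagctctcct
ASPM, chr1:197146670-197146919, minus strand: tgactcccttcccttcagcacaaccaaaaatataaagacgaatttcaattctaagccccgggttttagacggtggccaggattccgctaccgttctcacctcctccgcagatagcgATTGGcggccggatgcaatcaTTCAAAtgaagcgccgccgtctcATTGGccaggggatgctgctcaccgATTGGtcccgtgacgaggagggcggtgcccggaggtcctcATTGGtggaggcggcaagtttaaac
CCNB2, chr15:59104896-59105145, plus strand: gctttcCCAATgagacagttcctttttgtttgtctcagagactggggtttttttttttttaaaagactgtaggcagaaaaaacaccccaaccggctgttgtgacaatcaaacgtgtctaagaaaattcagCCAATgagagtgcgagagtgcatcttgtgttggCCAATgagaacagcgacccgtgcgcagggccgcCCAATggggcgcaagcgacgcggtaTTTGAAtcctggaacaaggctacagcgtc
CDC20, chr1:43358731-43358980, plus strand: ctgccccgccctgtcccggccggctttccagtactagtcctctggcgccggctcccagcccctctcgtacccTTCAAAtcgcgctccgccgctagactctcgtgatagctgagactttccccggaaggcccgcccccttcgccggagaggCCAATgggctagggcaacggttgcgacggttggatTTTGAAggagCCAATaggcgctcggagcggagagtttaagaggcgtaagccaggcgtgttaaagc
MYBL2, chr20:43666864-43667113, plus strand: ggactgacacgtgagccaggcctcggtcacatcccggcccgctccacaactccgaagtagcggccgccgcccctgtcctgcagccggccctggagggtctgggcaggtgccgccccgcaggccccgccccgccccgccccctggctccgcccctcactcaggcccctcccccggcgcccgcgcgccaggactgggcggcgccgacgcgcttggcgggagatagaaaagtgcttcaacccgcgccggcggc

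In CCNB2 the CHR letters begin 29 bases before the start. CCAAT begins 54, 87 and 120 bases before it, a spacing of 33 bases between these neighbours, and once more 244 bases before it. In CDC20 TTTGAA begins 65 bases before the start and CCAAT 55 bases before it. CDC20 also holds TTCAAA 178 bases and CCAAT 100 bases before the start. TOP2A holds ATTGG 4 times, and ASPM also 4 times.

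Members with and without the motif were both low in EV replicate 1. The 26 measured members with a TTTGAA match had a median difference from EV replicates 2 to 4 of -1.73, and 22 of them lay more than 1 log2 unit below. The 13 without had a median of -1.58, with 7 below by that much. Of the 19 with both motifs 18 lay below by more than 1, all but ESPL1. Of the 4 with neither, 3 lay below by more than 1, with a median of -2.08: MYBL2, TACC3 and KIF2C did, and CKAP2 was at 0.39. Those 3 had signals of 7.93, 7.71 and 7.69 there, below the negative control level of 8.24, so that median is uncertain in size. These counts describe 1 tumour and were not tested.

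Between BORA and EV tumours, the members nearest to a difference were a kinesin and the ubiquitin-conjugating enzymes of the APC/C. KIFC1, a minus-end motor that focuses spindle poles, was at 9.73, 9.68, 9.77 and 9.36 in BORA replicates 1 to 4. In EV replicates 1 to 4 it was at 7.79, 8.90, 8.95 and 8.93. All BORA tumours lay above all EV tumours, with EV replicate 1 counted or left out. KIFC1 differed by 0.99 (SE 0.27, 1.99-fold) over 8 tumours and 0.71 (SE 0.16, 1.63-fold) over 7. It did not pass in limma (adjusted p = 0.188 and 0.0908).

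UBE2C, the enzyme that starts ubiquitin chains on APC/C substrates, was at 10.04, 9.55, 9.80 and 9.71 in BORA tumours. In EV replicates 1 to 4 it was at 8.33, 9.22, 9.17 and 9.36. Again no EV tumour reached the lowest BORA tumour. BORA tumours were higher by 0.75 (SE 0.23, 1.68-fold, limma adjusted p = 0.227) and, over 7 tumours, by 0.52 (SE 0.17, adjusted p = 0.189).

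UBE2S, which lengthens those chains, had the largest difference of the members over 8 and over 7 tumours. It was nearly level in BORA tumours, at 9.71, 9.63, 9.76 and 9.71, and scattered in EV tumours, at 6.15, 8.58, 9.65 and 8.36. EV replicate 3 lay inside the BORA range and the other EV tumours below it. UBE2S differed by 1.52 (SE 0.60, limma adjusted p = 0.302) and, over 7 tumours, 0.84 (SE 0.27, adjusted p = 0.181). It passed only where EV replicate 3 too was left out (1.24, adjusted p = 0.0215).

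Groups that did not overlap were found for 2 members over 8 tumours, KIFC1 and UBE2C, 4.76% of the 42, where 9.36% of all clusters did so (4.45% with BORA tumours higher and 4.91% lower). Over 7 tumours there were 3, 7.14%, with ASPM in the lower direction, against 14.3% of all clusters (6.66% higher and 7.68% lower). Before adjustment, p was under 0.05 with BORA tumours higher for 3 members and lower for 0 over 8 tumours, where this held for 7.37% and 7.17% of clusters. Over 7 tumours 3 members were higher and 2 lower, against 7.70% and 7.62% of clusters. The members' shares of low p-values and of separate groups were thus near or below those of all clusters. Of the markers of other cell types, the summed endothelial signal also did not overlap, at 8.75 to 9.39 in BORA tumours and 7.75 to 8.59 in EV tumours. Of its 5 genes 2 (PECAM1 and CDH5) exceeded the negative control level in any tumour but EV replicate 1. The list was not higher as a whole: 2 of the 5 had differences above 0 over 8 and over 7 tumours, with list medians of -0.062 and -0.092. The summed leukocyte signal was at 11.59 to 12.25 in BORA tumours, 12.64 to 13.20 in EV replicates 2 to 4 and 10.89 in EV replicate 1. Of its 6 genes only PTPRC, which marks leukocytes, and CD68, of macrophages, exceeded the negative control level in any array. PTPRC was at -2.07 over 7 tumours (limma adjusted p = 0.0194; -0.68 and 0.803 over 8) and CD68 at 0.38. The summed fibroblast signal overlapped (15.17 to 15.69 against 14.83 to 15.81). The array reads human genes and the hosts were mice, and whether any marker signal came from host or tumour cells was not tested. The part of these markers in the values of the members was not tested either.

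Of the 42 members 38 had log2 differences above 0 over 8 tumours, with a median of 0.35, where 46.6% of all clusters were above 0 and their median was -0.026. Over 7 tumours 23 were above 0 and 19 below, with a median of 0.042, against 46.1% and -0.029 for all clusters. For 34 members both group means exceeded the negative control level, and these had a median of 0.29 over 8 tumours and 0.019 over 7. Of all clusters that did so 63.8% were above 0 over 8 tumours (median 0.10) and 61.3% over 7 (median 0.080). The mean of KIF20A, KIF14, KIF4A, KIF15 and CEP55 lay below it in both groups and that of NCAPH, NCAPD2 and CDC23 in EV tumours only, so the sizes of their differences are uncertain.

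**Figure D3:**
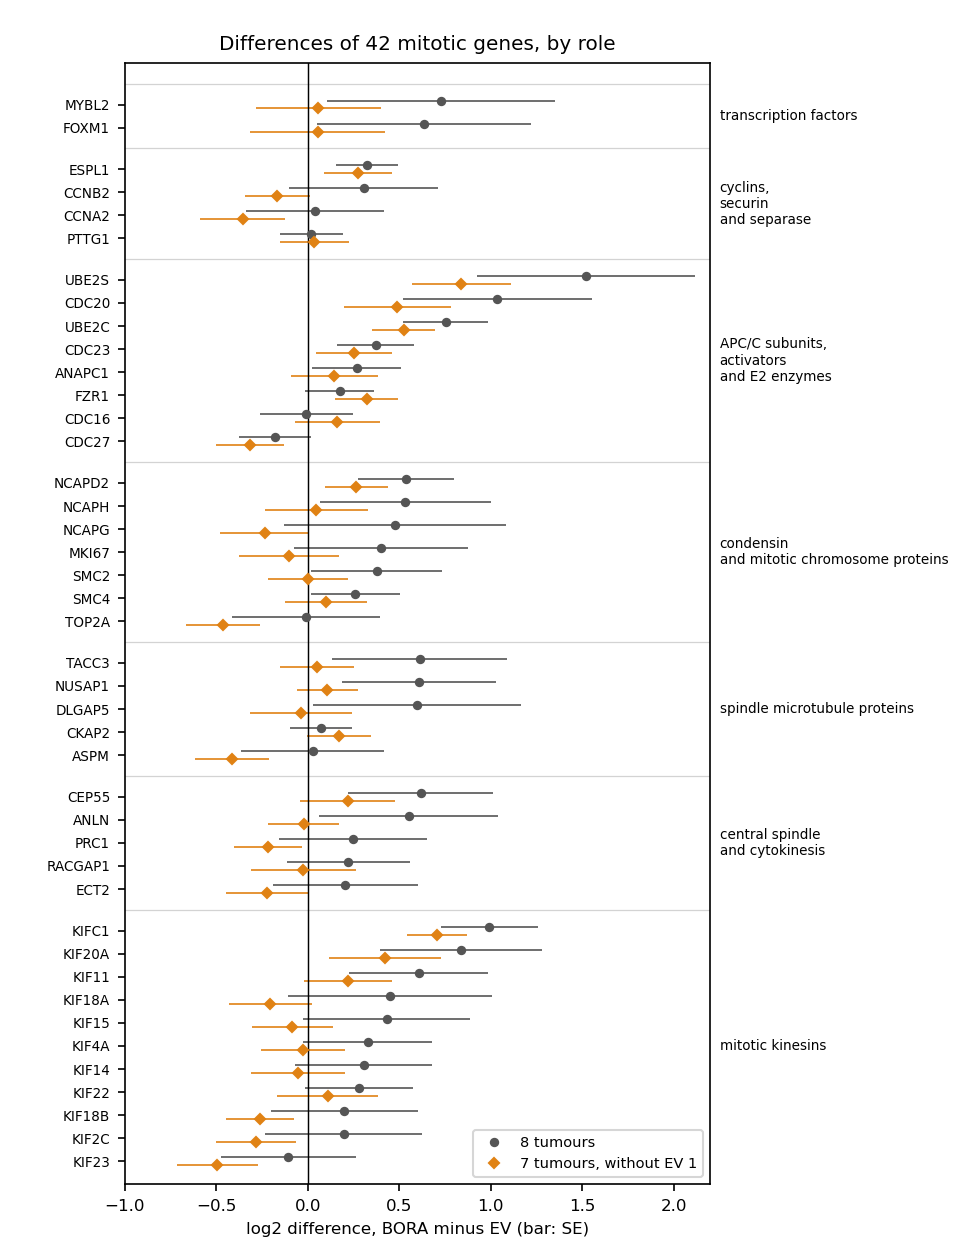
Log2 differences of the 42 genes, BORA minus EV, with their SE, over 8 tumours (grey circles) and over the 7 without EV replicate 1 (orange diamonds), grouped by role. All but 4 circles lie above 0, while 23 diamonds lie above 0 and 19 below.

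Among the 11 kinesins 10 had differences above 0 over 8 tumours and 4 over 7, and their median went from 0.33 to -0.054. KIF11, the motor that pushes spindle poles apart, was at 9.79, 9.19, 8.83 and 8.80 in BORA tumours and at 7.39, 8.75, 9.04 and 9.001 in EV tumours. BORA replicate 1 stood highest and EV replicate 1 lowest, with the other tumours mixed. Its log2 difference was 0.61 (SE 0.38) and, over 7 tumours, 0.22 (95% interval -0.31 to 0.75).

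KIF23, the motor of centralspindlin, ran the other way. It was at 10.55, 10.07, 9.83 and 9.72 in BORA tumours and at 8.98, 10.31, 10.80 and 10.51 in EV tumours. EV replicates 2 to 4 lay above all BORA tumours but replicate 1, and over 7 tumours the value was -0.50 (SE 0.22, limma adjusted p = 0.318). That value is the lowest of the 42 over 7 tumours. KIF20A, which carries the passenger complex to the central spindle, was at 0.84 over 8 tumours and 0.42 over 7. KIF2C, a microtubule depolymerase, went from 0.20 to -0.28, and KIF18A, which dampens chromosome oscillation, from 0.45 to -0.20. None passed.

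All 5 measured cytokinesis genes were above 0 over 8 tumours, and 1 of 5 over 7, CEP55, which recruits the abscission machinery (0.62 and 0.22). PRC1, which bundles the antiparallel microtubules of the central spindle, was at 11.56, 11.62, 11.63 and 11.16 in BORA tumours and at 9.85, 11.54, 11.95 and 11.64 in EV tumours. BORA replicate 4 was the low one of its group and EV replicate 3 the highest of all 8. Its log2 difference was 0.25 (SE 0.40) over 8 tumours and over 7 it was -0.22 (95% interval -0.62 to 0.19). ANLN, the furrow scaffold, was at 0.55 over 8 tumours and -0.023 over 7, RACGAP1, the partner of KIF23, at 0.22 and -0.025, and ECT2, the exchange factor that activates RHOA, at 0.20 and -0.22.

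Spindle proteins had a median of 0.60 over 8 tumours and 0.050 over 7. ASPM, a protein of the spindle pole, was at 9.33, 9.30, 9.14 and 8.73 in BORA tumours. It was at 7.78 in EV replicate 1 and at 9.35, 9.42 and 9.84 in EV replicates 2 to 4. The last 3 lay above every BORA tumour, the nearest by 0.02, while EV replicate 1 lay below all. The log2 difference was 0.026 (SE 0.39) over 8 tumours and -0.41 (SE 0.20, limma adjusted p = 0.362) over 7.

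Condensin and chromosome genes had a median difference of 0.40 over 8 tumours and 0.0023 over 7. TOP2A, the topoisomerase that untangles sister chromatids, was at 13.25, 12.92, 12.58 and 12.82 in BORA tumours and at 11.54, 13.12, 13.31 and 13.64 in EV tumours. BORA replicate 1 lay within the range of EV replicates 2 to 4 and the other BORA tumours below it. Between groups it differed by -0.0097 (SE 0.40) over 8 tumours and -0.46 (SE 0.20, limma adjusted p = 0.306) over 7.

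MKI67, a chromosome surface protein and common proliferation marker, was at 12.76, 12.08, 11.56 and 11.66 in BORA tumours and at 10.11, 11.93, 12.03 and 12.39 in EV tumours. Apart from EV replicate 1 the groups were mixed, with BORA tumours at both ends. Its log2 difference was 0.40 (SE 0.47) over 8 tumours and -0.10 over 7, with a 95% interval of -0.70 to 0.50. The condensin subunits SMC2, SMC4, NCAPH, NCAPG and NCAPD2 ranged from 0.26 for SMC4 to 0.54 for NCAPD2 over 8 tumours, and from -0.23 for NCAPG to 0.27 for NCAPD2 over 7.

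The APC/C list had a median of 0.32 over 8 tumours and, with 7 of 8 members above 0, of 0.29 over 7, the highest of the 7 roles there. CDC20, the activator that starts anaphase, was at 12.35, 11.40, 11.31 and 11.12 in BORA tumours and at 8.87, 10.99, 11.49 and 10.69 in EV tumours. EV replicate 3 lay among the BORA tumours. Its log2 difference was 1.04 (SE 0.52, limma adjusted p = 0.390) over 8 tumours and 0.49 (SE 0.29, adjusted p = 0.463) over 7.

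FZR1, the other activator, was at 10.18, 10.10, 10.17 and 10.00 in BORA tumours and at 10.38, 9.65, 10.08 and 9.64 in EV tumours. The BORA tumours lay close together, and EV replicate 1 was the highest of all 8. The difference of FZR1 was 0.17 (SE 0.19) over 8 tumours and 0.32 (SE 0.17, limma adjusted p = 0.404) over 7. CDC27, a core subunit that binds both activators, was at 13.39, 13.04, 13.46 and 12.86 in BORA tumours and at 12.96, 13.58, 13.46 and 13.48 in EV tumours. BORA replicates 1 and 3 lay near the EV level and the others near or below the lowest EV tumour, at a log2 difference of -0.18 (SE 0.20) over 8 tumours, the lowest of the 42, and -0.32 (SE 0.19) over 7.

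**Figure D4:**
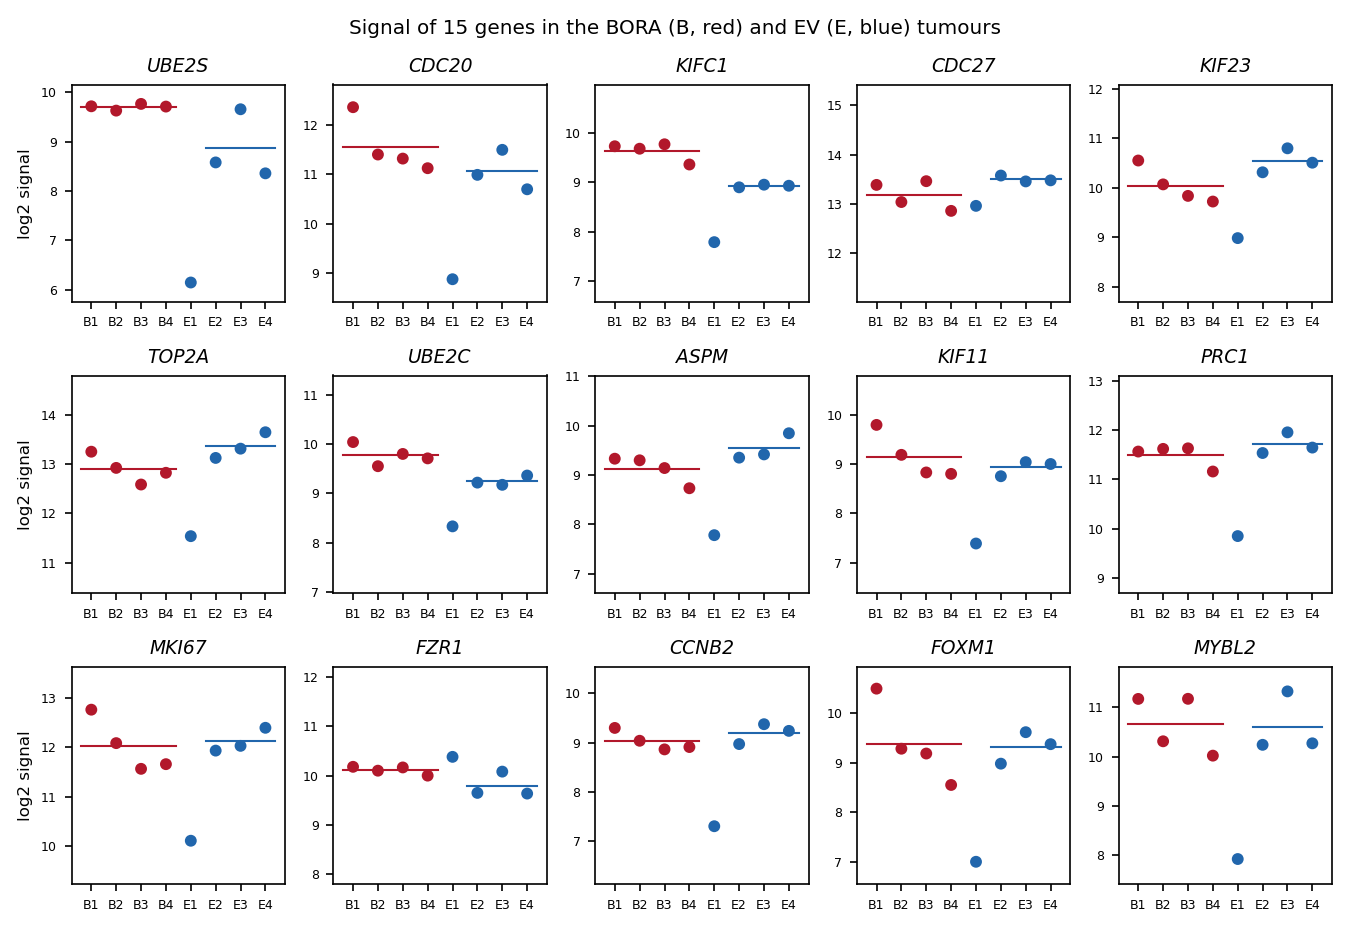
Log2 signal of the 15 genes given by tumour, in BORA replicates 1 to 4 (B1 to B4, red) and EV replicates 1 to 4 (E1 to E4, blue); lines are the mean of the BORA tumours and of EV replicates 2 to 4. Every panel spans 4.4 log2 units; KIFC1 and UBE2C are the panels in which all red points lie above all blue ones.

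Mitotic cyclins and the genes of sister separation showed small differences. CCNB2, a B-type cyclin, was at 9.30, 9.04, 8.86 and 8.91 in BORA tumours and at 7.31, 8.97, 9.37 and 9.24 in EV tumours. The groups overlapped. For CCNB2 the difference was 0.30 (SE 0.40) over 8 tumours and -0.17 (95% interval -0.56 to 0.23) over 7. CCNA2, the A-type cyclin, was at 0.039 over 8 tumours and -0.36 over 7, securin (PTTG1) at 0.019 and 0.036, and separase (ESPL1) at 0.32 and 0.28.

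FOXM1 varied more among BORA tumours than any other member did (SD 0.81, n = 4). MYBL2 was next (SD 0.592), nearly level with NCAPH (0.586) and KIF20A (0.585). FOXM1 had signals of 10.50, 9.29, 9.19 and 8.55 in BORA tumours, and of 6.999, 8.98, 9.62 and 9.38 in EV replicates 1 to 4. The span of the BORA tumours covered EV replicates 2 to 4. The log2 difference was 0.64 (SE 0.58) over 8 tumours and 0.055 (95% interval -0.76 to 0.87) over 7. MYBL2 was at 11.17, 10.31, 11.17 and 10.02 in BORA tumours and at 7.93, 10.24, 11.32 and 10.27 in EV tumours. High and low tumours occurred in each group, and the difference was 0.73 (SE 0.63) over 8 tumours and 0.058 over 7 (95% interval -0.69 to 0.81).

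Within the BORA group the members did not move alike in all tumours. BORA replicate 1 was the highest of the 8 tumours for 20 members, and EV replicate 3 for 10. Over the 7 tumours without EV replicate 1, BORA replicate 4 was the lowest for 18 members and BORA replicate 3 for 10. Without BORA replicate 1 as well, the mean difference of the members was -0.088, with 14 of 42 above 0.

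Other genes of the same machinery were also tested, 58 measured of 60 listed, and 0 passed in either direction over 8 or over 7 tumours. Their median difference was 0.092 over 8 tumours and 0.037 over 7. All 4 chromosomal passenger genes were above 0 in each, INCENP at 1.12 and AURKB at 0.78 over 8 tumours and at 0.35 and 0.27 over 7. The mean of AURKB lay below the negative control level in both groups and that of BIRC5 and CDCA8 in EV tumours only. The sizes of their differences are therefore uncertain. Of the MuvB and DREAM genes, E2F4, a repressor partner of the complex, was at 0.66 over 8 tumours and over 7 (limma adjusted p = 0.188 and 0.152). LIN52, a MuvB subunit, was at -0.79 and -0.67 (adjusted p = 0.193 and 0.179). The groups of E2F4, LIN52, WAPL and CHMP4B did not overlap over 8 or over 7 tumours. Such separation held for 4 of the 58 related genes over 8 tumours (6.90%) and for 7 over 7 tumours (12.1%). The shares of all clusters were 9.36% and 14.3%.

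Of the remaining APC/C subunits, ANAPC10, which helps bind substrates, was at 0.49 over 8 tumours and 0.41 over 7, and ANAPC15, which aids turnover of the checkpoint complex, at 0.66 and 0.45. WAPL, which releases cohesin, was at 0.42 and 0.36, and NCAPH2, of condensin II, at 0.41 and 0.45. Of the abscission machinery, CHMP4B was at 0.45 and 0.47 and TSG101 at 0.51 and 0.34. Of the transport kinesins, KIF21A was at -0.61 over 8 tumours and, smaller in size without EV replicate 1, at -0.38, and KIF3A at -0.52 and -0.32. In that list 5 of 14 were above 0 over 8 tumours and 4 over 7.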

How the data were processed

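Total RNA of 8 tumours was biotin-labelled and hybridised to 1 Affymetrix array each. The submitters' processing notes name Affymetrix Expression Console as the authors' software. Its version, how values were normalized, and the genome build are not given in sources used here. The range of the deposited signals fits a log2 scale, which the labels do not state, and folds hold only on that reading. The design text names another array type than the row identifiers. The supplied annotation gave 1 symbol each to 17709 of 24351 rows, all matched to current RefSeq genes; no filter and no further normalization was applied.

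All 17709 clusters were fitted with limma 3.58.1 in R 4.3.3 (lmFit and eBayes, BORA minus EV, no covariates), with Benjamini-Hochberg adjustment over all of them and a threshold of 0.05, over 8 arrays and over 7 without EV replicate 1. The steps were tested on simulated data. Members, related gene lists, markers and the set without EV replicate 1 were chosen with earlier results of these data known. Lists are therefore described by counts and medians, without tests. Given by tumour are the 3 highest and 3 lowest members over 8 and over 7 tumours, any that passed, and 9 chosen for their role; of related genes, the 2 with the smallest p per list. No array repeats another (2 arrays shared at most 0.0113% of their values), and their number limits how precise the values are. The fit was repeated with quantile normalization, with centring on array medians, with the replicate number as a block, and with an intensity trend with robust fitting, array weights, a filter on dim clusters, all rows, a threshold of 0.1, the mean of all clusters of a symbol, and each array left out in turn. No scan date or slide is given, so no batch was tested.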

Additional observations from a re-analysis of the deposited data

Results flagged for a closer look

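Of 44 groups of 4 tumours examined (the members given by tumour, BORA, the mean over members and the summed marker lists), 5 held a tumour whose gap to the nearest other was, as a share of the range, above Dixon's critical value; chance gives about 1 in 20. KIFC1 was at 7.79 in EV replicate 1, with the other EV tumours between 8.90 and 8.95. PRC1 was at 11.16 in BORA replicate 4, with the others between 11.56 and 11.63. The summed squamous markers were at 18.53 in EV replicate 1, with the others at 13.14 to 14.02. The summed leukocyte markers were at 12.25 in BORA replicate 3, with the others at 11.59 to 11.62. The summed endothelial markers were at 8.75 in BORA replicate 3, with the others at 9.31 to 9.39.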

How the results depend on the processing

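The count of members past the threshold was 0 of 42 over 8 tumours under every alternative run. Over 7 tumours it was 0 except at a threshold of 0.1, where it was 1 (KIFC1), and without EV replicate 3, where it was 1 (UBE2S); leaving out single arrays gave 0 to 1. With all arrays of a set kept, the mean member difference over 8 tumours ranged from 0.18 (array weights) to 0.40, and over 7 tumours from -0.088 (replicate block, which leaves BORA replicate 1 without a partner) to 0.063 (array weights). With single arrays left out it ran from 0.038 (without EV replicate 1) to 0.57 (without EV replicate 3) over 8 tumours, and from -0.088 (without BORA replicate 1) to 0.13 (without BORA replicate 4) over 7. Same-numbered tumours did not deviate together (correlations -0.11, 0.039, 0.071 and -0.019). The labels do not say what the replicate number means, and these correlations cannot exclude a shared animal or day. With the replicate number as a block, 1 cluster in place of 18 passed over 8 tumours and 79 in place of 91 over 7. The differences of FOXM1 and MYBL2 over 7 tumours then turned to -0.32 and -0.11. Clusters called over 8 tumours numbered 11 after quantile normalization, 48 with array weights, 49 at a threshold of 0.1, and 1 to 91 with single arrays left out. Over 7 tumours they numbered 45 with all rows tested, 277 at a threshold of 0.1, and 25 to 152 with single arrays left out. Members near 0 changed sign: over 8 tumours ASPM was at -0.094 after quantile normalization, -0.027 after centring and -0.22 with array weights, and PRC1 at -0.034 with array weights. Over 7 tumours FOXM1 was at -0.052 and MYBL2 at -0.066 after quantile normalization. With single arrays left out of the 8, ASPM ran from -0.41 to 0.27, CCNB2 from -0.17 to 0.52, KIF23 from -0.50 to 0.11, MKI67 from -0.10 to 0.66, PRC1 from -0.22 to 0.48 and TOP2A from -0.46 to 0.24. With single arrays left out of the 7, FOXM1 ran from -0.32 to 0.33, MKI67 from -0.35 to 0.049, MYBL2 from -0.13 to 0.41 and UBE2S from 0.59 to 1.24. The cause of these changes was not tested. The filter on dim clusters kept 37 of the 42 members.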

Other observations

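In BORA tumours the level of BORA and the mean over the 42 members stood in different orders. Replicate 4 had the highest BORA signal (13.001) and the lowest member mean (9.58), and replicate 1 a BORA signal of 12.57 with the highest member mean (10.24); replicates 2 and 3 had 12.55 with 9.88 and 12.91 with 9.73. No relation was tested over 4 tumours. In EV replicate 1, KIF16B, a kinesin of early endosomes chosen after its values were seen, was 2.55 log2 units above EV replicates 2 to 4 (10.68 against 8.13 ± 0.36, SD, n = 3), the highest difference there among the members and the related genes.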
